A study of Rattus norvegicus with 12 samples.

Results

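Matrix metalloproteases are enzymes that cut the proteins of the extracellular matrix and of the cell surface, and tissue inhibitors of metalloproteases (TIMPs) are the small secreted proteins that bind and block them. In the rat, 10 genes of this system were followed with age in the rostral ventrolateral medulla (RVLM): the secreted gelatinases Mmp2 and Mmp9, the membrane-bound Mmp14, Mmp15, Mmp16 and Mmp17, and the inhibitors Timp1, Timp2, Timp3 and Timp4. They were taken by name, as every non-control probe whose gene name or current symbol is one of the 10, whatever its signal. Of the 10 genes, 9 had a probe, with 11 probes among the 41012 non-control probes of the array; no probe was named Timp4. The signal was above background for 8 of them, which were tested, and Mmp9 was not well above background on any array.

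The RVLM is a region of the lower brainstem whose catecholamine-making C1 neurons drive sympathetic outflow to the heart and vessels. It was micropunched from male rats of the inbred strain F344. The young were 3 months old, the middle-aged 12 months and the aged 24 months; each group had 3 rats, and the labels name no treatment that set the groups apart. Total RNA was hybridised to 1-colour whole rat genome arrays, and RNA of each group's replicate 3 went on a pair of them, so that 9 animals filled 12 arrays. Such a punch holds neurons, glia, vessels and any meninges caught with it, and in bulk RNA fewer cells of a type and less RNA per cell cannot be told apart.

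In brain tissue the system works in a chain. MMP14 sits in the plasma membrane, where it cuts matrix proteins and, with TIMP2 bound to it as an adaptor, activates the secreted proenzyme of MMP2. TIMP1 and TIMP2 are soluble, TIMP3 binds to the matrix, and TIMP4 is an inhibitor with a narrower tissue distribution. Basement membranes of vessels, perineuronal nets around neurons and synaptic adhesion proteins are among their known substrates.

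Levels are given as log2 of the probe's processed signal minus log2 of the 75th percentile of its array, so that 0 is the signal of a probe at that percentile; they are compared between animals and never between probes. A difference is in log2 units, with the limma standard error (SE) and 3 animals per group, and an item (a named gene, or a probe with no gene name) passed when its two-sided limma p, with Benjamini-Hochberg adjustment across 25446 items, was under 0.05.

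Depth was alike on the 12 arrays: detected spots made up 73.5% to 77.1%, and the median processed signal lay between 97.3 and 130.2. The C1 neuron markers Th, Ddc, Dbh, Slc18a2 and Npy were well above background on all 12 arrays, while Pnmt matched no probe here. Young replicate 1 stood apart in 10 fibroblast and meningeal markers, all above background on all 12 arrays: their summed level was 1.59 times the young mean there, 0.71 and 0.70 times in the other young rats, and 0.76 to 1.02 times in the 6 older rats. For aged minus young, each of the 8 genes is therefore given with and without that animal. The median of those markers in each animal, beside other marker lists, is plotted.

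**Figure D1:**
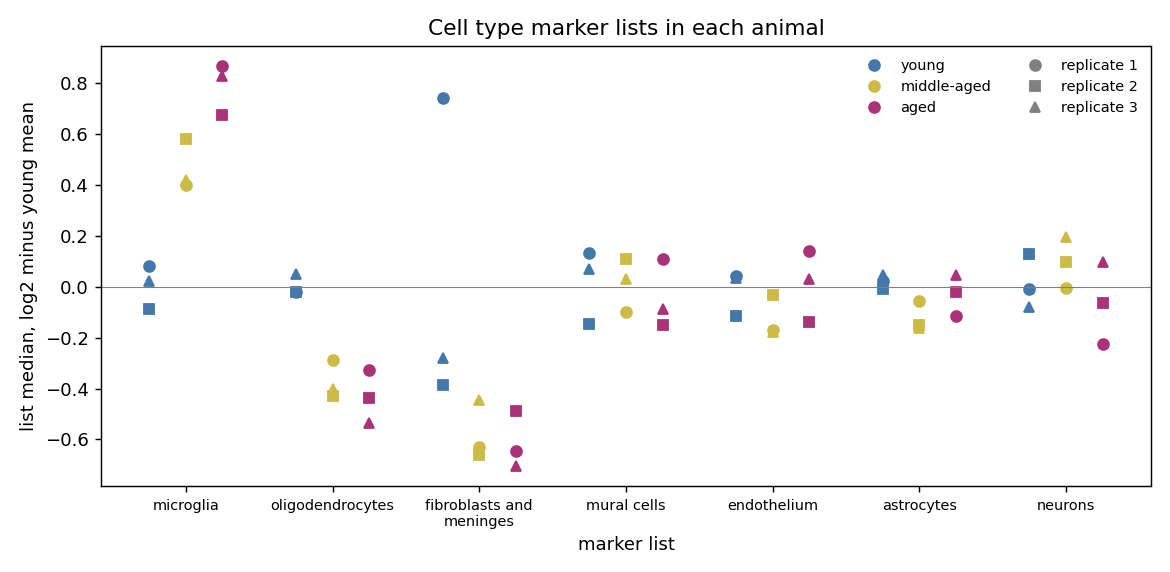
Median over each cell type marker list (horizontal axis) of the log2 level minus the young mean (vertical axis), with 1 symbol per animal, coloured by age and shaped by replicate. Young replicate 1 lies at 0.74 in the fibroblast and meningeal list, above every other animal; the aged rats lie at 0.67 to 0.87 in the microglial list.

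The probes on which the results turn are shown next, 5′ to 3′, so that a reader can see what was hybridised. For Mmp14 and Timp2, 30 of the 60 bases are shown, and for Timp1 and Timp3 the whole probe; the capitals in the Timp2 line mark AATAAA, the polyadenylation hexamer.
Mmp14, first 30 bases: cttcagagtgcatatttggaggtggaaaga
Timp1, whole probe: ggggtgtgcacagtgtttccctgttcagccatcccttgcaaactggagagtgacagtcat
Timp2, last 30 bases: cccttcctggaaacagcatgAATAAAacat
Timp3, whole probe: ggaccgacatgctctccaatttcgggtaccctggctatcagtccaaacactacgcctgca
The hexamer AATAAA was found in the sense strand of 1 of the 11 probes and in that of 4.26% of the 41012 probes of the same length. On either strand 7.43% of all probes held it. It is a description of these letters only.

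On the build the array files use, rn3, the Mmp14 probe lies at chr15:32518712-32518771 on the plus strand and the Timp2 probe at chr10:108325748-108325807 on the minus strand. The Timp3 probe lies at chr7:19689264-19689323 on the minus strand. The Timp1 probe is placed at chrX:12548256-12549259 on the minus strand, a span far longer than its 60 bases, so the placement holds a gap. The Mmp15 probe is at chr19:10133127-10133186 on the minus strand and the Mmp17 probe at chr12:28008800-28008859 on the minus strand. All carry the gene's name in the array files, where Mmp15 and Mmp17 are marked as predicted transcripts. Whether a probe falls in coding sequence or in an untranslated region was not analysed here.

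Mmp14 fell with age, and it was the only one of the 8 tested genes that passed the test in any of the 3 comparisons. Its level was 1.89, 1.48 and 1.73 in the young rats, 1.27, 1.21 and 1.48 in the middle-aged rats and 0.76, 0.57 and 0.75 in the aged rats. Every aged rat lay below every middle-aged and every young rat, while the young and middle-aged values overlapped. In linear terms the signal was 279.1% to 369.9% of the 75th percentile in the young and 148.3% to 169.4% in the aged.

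From young to aged, Mmp14 changed by -1.01 ± 0.12 (SE; 95% interval -1.28 to -0.73; limma adjusted p = 0.00467), which left 0.497 times the young signal. By its p-value it ranked 118 of 25446 items in that comparison. The moderated F test over the 3 ages also passed (limma adjusted p = 0.0137), as it did for 1.15% of all items. The difference was -0.92 ± 0.12 without young replicate 1 (limma adjusted p = 0.0153).

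The larger difference lay in the later step. From middle-aged to aged the difference was -0.63 ± 0.12, with a limma p of 0.000674 that became 0.187 after adjustment. From young to middle-aged it was -0.38 ± 0.12, with a limma p of 0.0132 and an adjusted p of 0.514. Neither step passed, and whether the steps differed in size was not tested.

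The gene was steady across technical choices, all of them read from 1 probe that was spotted once on each array. No second probe or spot was there to check that reading. The repeat arrays of replicate 3 differed by 0.05 in the young rat, by 0.01 in the middle-aged rat and by 0.05 in the aged rat, beside a median absolute gap over all items of 0.06 in each. With slide as a block the difference was -1.04 ± 0.13 (limma adjusted p = 0.00784), and on slide 3, the only slide with all 3 ages and 1 animal of each, it was -1.01. Slide 2, with 2 aged and 2 middle-aged rats, gave -0.68 between those ages, and slide 1, with 1 middle-aged and 3 young rats, gave -0.42 between those. The call held in all 24 alternative fits, with an adjusted p of 0.000537 to 0.0283; in 1 of them, on the authors' scaled scores, the difference was -0.32 in units of SD and not log2.

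**Figure D2:**
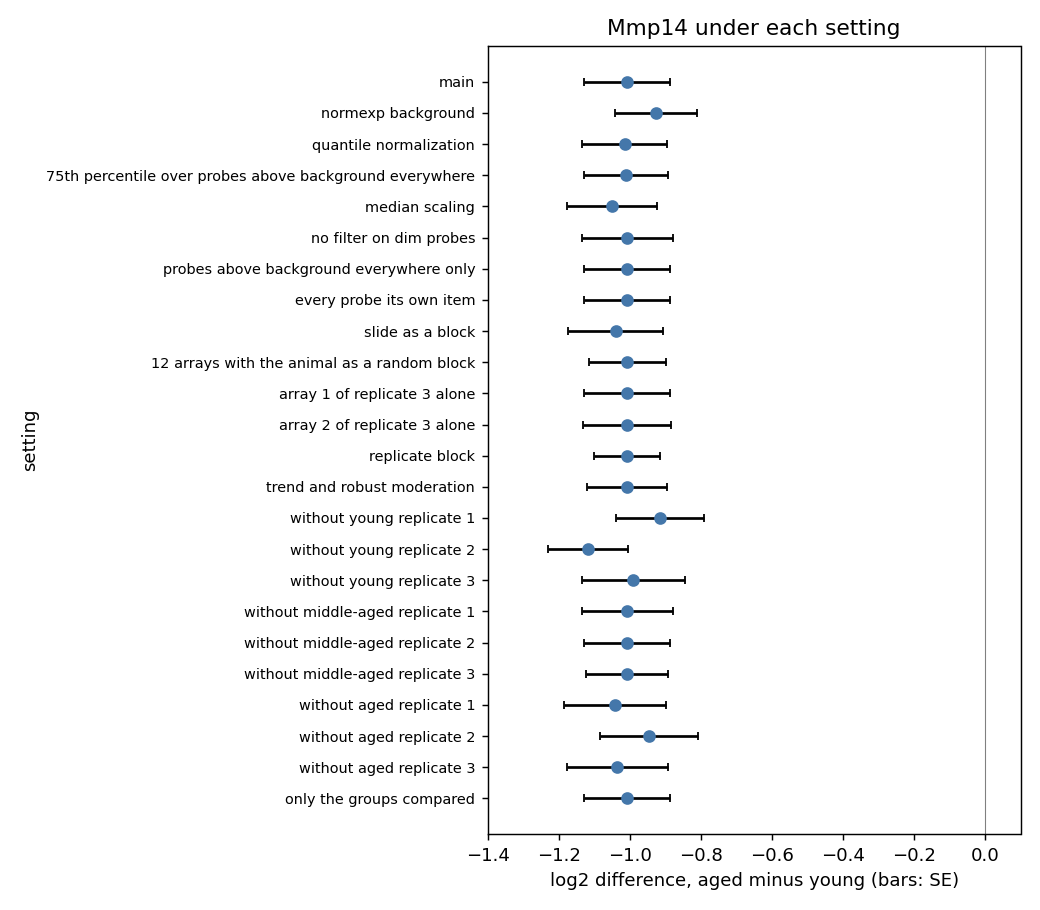
Mmp14, aged minus young: the log2 difference (horizontal axis, bars give the SE) under each setting on the log2 signal and with each animal left out (vertical axis). The fit on the authors' scaled scores, in units of SD, is not drawn. The points drawn lie between -1.12 and -0.92, and the bars stay clear of 0.

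Other cell type markers moved with age in the same punches. The oligodendrocyte list had 10 of 10 genes lower in the aged rats, with a median difference of -0.45 against 0.03 over all items. Of these genes 3 passed and 8 had an unadjusted limma p under 0.05. Over all items the shares were 2.04% and 15.2%, the background also for such counts in the other marker lists. Among the genes of the oligodendrocyte list Ugt8 fell by 0.93 and Mal by 0.51. Its summed level was 0.97 to 1.03 times the young mean in the young rats, 0.79 to 0.84 times in the middle-aged and 0.68 to 0.78 times in the aged. The microglial list had 10 of 10 genes higher, a median of 0.74 and 7 genes that rose, among them Trem2 by 1.82 ± 0.12 and P2ry12 by 1.19 ± 0.11. Its summed level was 0.93 to 1.05, 1.31 to 1.63 and 1.70 to 1.99 times the young mean in the young, middle-aged and aged rats. Of the fibroblast and meningeal list 9 of 10 genes were lower in the aged rats, with a median of -0.52 and 0 calls by limma (7 with an unadjusted p under 0.05). Without young replicate 1 the median was -0.37, again with 0 calls. The summed level of this list was 0.93 to 1.02 times the young mean in the aged rats. That lay below young replicate 1, at 1.59, and above the other young rats, at 0.71 and 0.70, so the direction depended on the measure and on that animal. The C1 neuron list had 5 of 6 tested genes lower in the aged rats, with a median of -0.34 and 0 calls by limma. Of these, 2 had an unadjusted p under 0.05: Dbh, which makes noradrenaline, at -0.92 ± 0.20 (adjusted p = 0.0656) and Slc18a2, the vesicular monoamine transporter, at -0.53 ± 0.16 (0.162). The summed level of the list was 0.92 to 1.09 times the young mean in the young, 0.81 to 0.99 times in the middle-aged and 0.61 to 0.95 times in the aged rats. The endothelial, mural, astrocyte and general neuronal lists had medians of -0.02, -0.05, -0.02 and -0.07 and 0 calls each by limma. With an unadjusted p under 0.05, 1 higher and 1 lower gene were found among endothelial and among astrocyte markers, 1 higher and 2 lower among mural markers, and 0 among neuronal markers. Without young replicate 1, Mal and Ugt8 still fell and 5 microglial genes rose. The part of any of these cell types in the Mmp14 difference was not tested.

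The 5 named genes whose profile over the 9 animals, taken relative to the young mean, lay nearest to that of Mmp14 were Scd, Cyp51, Cd93, Alox5 and Aacs. The root mean square gap was 0.13 for Scd, 0.18 for Cyp51, Cd93, Alox5 and Aacs. Scd makes monounsaturated fatty acids, Cyp51 is a demethylase of sterol synthesis, Cd93 is a receptor of endothelial and myeloid cells, Alox5 starts leukotriene synthesis and Aacs activates acetoacetate. From young to aged, Scd fell by 0.96 ± 0.09, Cyp51 by 0.98 ± 0.08, Cd93 by 1.22 ± 0.20, Alox5 by 0.98 ± 0.13 and Aacs by 0.77 ± 0.09 (limma adjusted p = 0.00247, 0.00112, 0.017, 0.00726 and 0.00467). They were chosen for this pattern, so their differences are a description. Cd93 did not pass without young replicate 1 (adjusted p = 0.0588) or without young replicate 3 (0.0641), and Alox5 did not with normexp background correction (0.0785).

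**Figure D3:**
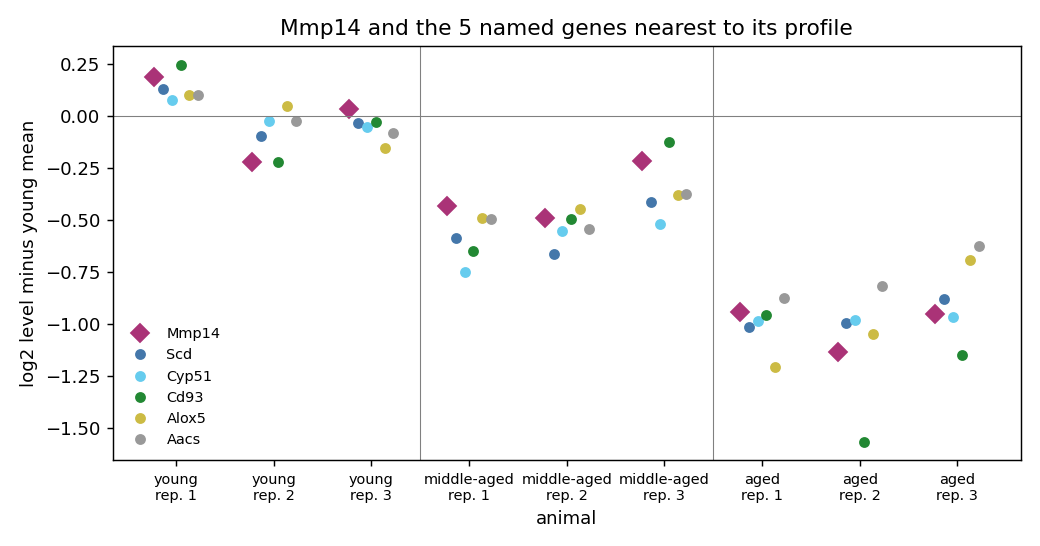
Log2 level minus the young mean (vertical axis) in each of the 9 animals (horizontal axis) for Mmp14 (diamonds) and the 5 named genes with the nearest profile (circles). All 6 genes lie below -0.60 in every aged rat.

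Over the 8 tested genes, 1 passed in aged against young rats (Mmp14, lower), beside 2.04% of all items and 0.472% called lower. At the same ages 4 had an unadjusted limma p under 0.05, beside 15.2% of items: Mmp14 and Mmp15 lower, Timp1 and Timp2 higher. In 3 of 8 the groups did not overlap, beside 22.7% of items: Mmp14 and Mmp15 lower, Timp2 higher. The median difference of the 8 was 0.11, beside 0.03 over all items.

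Among the membrane-bound enzymes, Mmp15 followed the same order of group means as Mmp14 with a smaller difference. Mmp15, known as a membrane-type protease close in kind to MMP14, had levels of -3.24, -3.24 and -3.34 in the young, -3.21, -3.57 and -3.62 in the middle-aged and -3.93, -3.58 and -3.70 in the aged rats. All aged values lay below all young ones, and the middle-aged rats spread across both. The difference of aged minus young was -0.46 ± 0.13 (limma adjusted p = 0.131), which did not pass. With slide as a block it was -0.30 ± 0.21, and without young replicate 1 it was -0.45 ± 0.15. With normexp background correction it was -0.28 ± 0.11. Over the 24 alternative fits the limma adjusted p was 0.0675 to 0.601. The aged repeat arrays differed by 0.285.

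Mmp16, a membrane-type protease with strong brain expression, differed little between ages on both of its probes. On the brighter probe, at chr5:32586566-32586625 on the plus strand, the level was -0.71, -0.78 and -0.42 in the young, -0.65, -0.55 and -0.67 in the middle-aged and -0.53, -0.47 and -0.62 in the aged rats. The groups overlapped, and aged minus young was 0.10 ± 0.10 (95% interval -0.14 to 0.33), or 0.06 ± 0.12 without young replicate 1. On slide 3 alone it was -0.21. The other probe, at chr5:32585251-32585310, gave 0.06 ± 0.07 with group means of -1.84, -1.83 and -1.79.

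Mmp17, which is anchored to the membrane by a lipid, spread widely between animals. Its level was -4.50, -4.31 and -4.19 in the young, -3.89, -4.16 and -4.56 in the middle-aged and -3.95, -4.42 and -4.25 in the aged rats. The groups overlapped, and aged minus young was 0.13 ± 0.18 (95% interval -0.29 to 0.54), or 0.04 ± 0.21 without young replicate 1. The middle-aged repeat arrays differed by 0.38, a gap as wide as the difference between some animals.

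Mmp2, the gelatinase that MMP14 activates, passed no test between ages, and both of its probes had a lower mean in the middle-aged than in the young rats. The array has 2 probes for it, which share 21 bases, the end of the brighter one and the start of the other, with 18 of the 21 identical. The stretch is shown because these probes are the only check of one Mmp2 reading by another; capitals mark the bases that differ.
Mmp2, brighter probe: ttgtcGgacatcActgcaCga
Mmp2, other probe: ttgtcTgacatcGctgcaTga
Counted from 1 at the first shared base, with the brighter probe's base first, the differences were G6T, A13G and C19T. The brighter probe lies at chr19:15251047-15251106 on the minus strand and was spotted 10 times on each array; the array files give no position for the other.

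On the brighter probe Mmp2 was at -0.28, -0.73 and -0.72 in the young, -0.98, -0.72 and -0.62 in the middle-aged and -0.35, -0.90 and -0.75 in the aged rats. Young replicate 1 and aged replicate 1 were the highest, and the groups overlapped. Aged minus young was -0.09 ± 0.18 (95% interval -0.49 to 0.31; limma adjusted p = 0.844). Without young replicate 1, whose fibroblast markers were high, it was 0.06 ± 0.17. The dimmer probe gave -0.04 ± 0.09 for the same comparison. For middle-aged minus young it gave -0.23 ± 0.09, with all middle-aged rats lower (limma adjusted p = 0.682 with every probe as its own item), while the brighter probe gave -0.20 ± 0.18 and overlapped. The middle-aged repeat arrays differed by 0.59 on the dimmer probe and by 0.04 on the brighter one. At -2.635, the higher of them on the dimmer probe lay above every young rat.

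Mmp9, the other gelatinase, best known in brain from injury and inflammation, was not well above background on any of the 12 arrays, although its probe, at chr3:155898499-155898558 on the plus strand, was spotted 10 times on each. Its mean processed signal was 2.42 to 3.14, below the 9.9 to 12.15 that was the lowest signal of any probe well above background on the same arrays. No fold was computed, and a level below this limit is not an absence of the RNA.

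Timp2, the inhibitor that also serves MMP14 as an adaptor, was higher in every aged rat than in any young rat. Its level was 5.03, 4.83 and 5.26 in the young, 5.39, 5.68 and 5.16 in the middle-aged and 5.68, 5.72 and 5.62 in the aged rats. The aged rats lay close together, and the middle-aged rats reached from the young range to the aged range. Aged minus young was 0.63 ± 0.15 (95% interval 0.30 to 0.97), which is 1.55 times the young signal, with a limma p of 0.00217 and an adjusted p of 0.0761 that did not pass. It passed in 3 of 24 alternative fits: adjusted p = 0.0343 with the 12 arrays and the animal as a random block, 0.04 with trend and robust moderation, and 0.048 without middle-aged replicate 2. With slide as a block it was 0.54 ± 0.16 (adjusted p = 0.189), and on slide 3 alone it was 0.34. It was 0.63 ± 0.18 without young replicate 1.

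Timp1, the inhibitor known to be induced by inflammatory signals, was higher in every aged rat than in any middle-aged rat. Against the young it passed only when young replicate 1 was left out. Its level was 0.40, -0.47 and -0.35 in the young, -0.22, -0.19 and -0.15 in the middle-aged and 0.54, 0.66 and 0.23 in the aged rats. Young replicate 1 lay within the aged range, and it was the animal whose fibroblast and meningeal markers stood apart. A link between those markers and its Timp1 value was not tested. The 10 spots of the probe differed on that array with an SD of 0.06 in log2, so the high value is not that of 1 spot.

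For Timp1, aged minus young was 0.61 ± 0.21 (limma adjusted p = 0.223), which did not pass. Without young replicate 1 it was 0.88 ± 0.13 and passed (limma adjusted p = 0.0208), and the count of genes called among the 8 was then 2. That was the only 1 of 24 alternative fits in which Timp1 passed. With each animal left out in turn the difference was 0.45 to 0.88, lowest without young replicate 2 (limma adjusted p = 0.501). Aged minus middle-aged was 0.66 ± 0.21, with all aged rats higher (limma adjusted p = 0.361). On slide 2 that difference was 0.77 and on slide 3 it was 0.38. Red blood cell markers were also higher in the aged rats, with 4 of 4 tested genes higher, a median of 0.88 and summed levels of 1.30 to 1.88 times the young mean, beside 0.83 to 1.19 times in the young. Neutrophil markers had 4 of 5 tested genes higher, a median of 0.74 and summed levels of 1.61 to 3.66 times the young mean, beside 0.83 to 1.32 times in the young. Neither list had a called gene by limma. At an unadjusted p under 0.05, 4 genes of the first and 3 of the second were higher and 1 of the second lower, beside 15.2% of all items. Without young replicate 1 the neutrophil gene S100a9 passed, at 2.35 ± 0.41 (limma adjusted p = 0.0445). The part of red blood cells, neutrophils, microglia, fibroblasts and meninges in the Timp1 and Timp2 values was not tested.

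Timp3, the matrix-bound inhibitor, did not differ between ages beyond the spread between animals on the probe that carries its name. Its level was -1.99, -2.45 and -2.43 in the young, -2.71, -2.05 and -2.27 in the middle-aged and -2.24, -2.12 and -2.11 in the aged rats. Young replicate 1 was the highest of all 9 animals. Aged minus young was 0.13 ± 0.18 (95% interval -0.28 to 0.54), and 0.28 ± 0.17 without that animal (limma adjusted p = 0.538). A further probe, described as similar to TIMP-3, is given apart below.

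**Figure D4:**
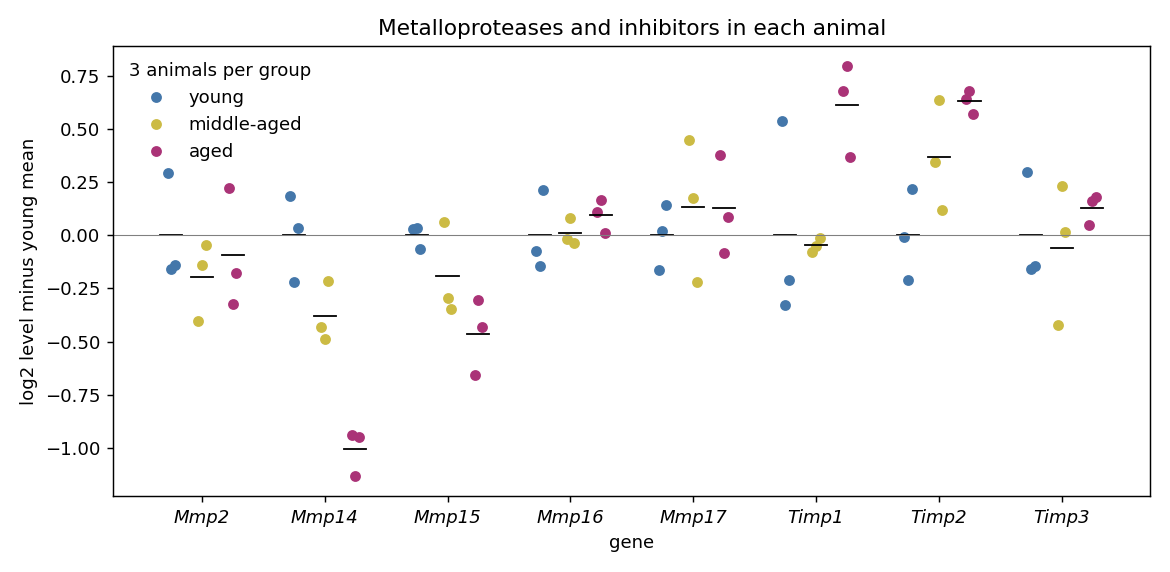
Log2 level minus the young mean (vertical axis) of each tested metalloprotease and inhibitor gene (horizontal axis), with 1 point per animal, 3 animals per age and a bar at the group mean. The aged Mmp14 points lie between -1.13 and -0.94, below all other points; 1 young Timp1 point, at 0.54, lies among the aged ones.

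For Timp4, which no probe names, the array holds 2 probes of a predicted locus, LOC678834, that its description calls similar to TIMP-4. They were not counted among the 10 genes. The brighter, at chr4:151620498-151620557 on the minus strand, had group means of 2.15 ± 0.03, 2.07 ± 0.05 and 2.25 ± 0.12 (SD, n = 3) in the young, middle-aged and aged rats. The other, placed at chr4:151621763-151624133 on the minus strand, had 1.06 ± 0.06, 1.03 ± 0.15 and 1.09 ± 0.03 (SD, n = 3). Aged minus young was 0.11 ± 0.08 and 0.04 ± 0.09. Both were above background on all 12 arrays, and neither passed. A further probe, AW141875, is an expressed sequence tag described as similar to the inhibitor TIMP-3. It lies on the same strand of chromosome 7 as the Timp3 probe, at chr7:19685726-19685785. It gave 0.19 ± 0.11 for aged minus young and 0.37 ± 0.11 for aged minus middle-aged. In the latter all aged rats lay above all middle-aged ones, with a limma p of 0.00987 and an adjusted p of 0.352, which did not pass.

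From young to middle age, 0 of the 8 genes passed by limma, beside 0.2% of all items. In this step 2 had an unadjusted p under 0.05, Mmp14 lower and Timp2 higher, beside 6.35% of items. In 0 of 8 were the groups apart, beside 11.3% of items. Timp2 differed by 0.37 ± 0.15 in this step (limma adjusted p = 0.715) and by 0.26 ± 0.15 in the later one. Its direction in the step to middle age turned with the slide: it was 0.35 on slide 1 and -0.15 on slide 3, with 1 middle-aged rat on each.

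From middle age to old age, 0 of 8 passed by limma, beside 0.0118% of items. Mmp14 lower and Timp1 higher were the 2 with an unadjusted p under 0.05, beside 10.7% of items, and the 2 whose groups did not overlap, beside 17% of items. The comparisons share animals: the aged rats enter this one and that with the young, so they are no independent support for each other.

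**Figure D5:**
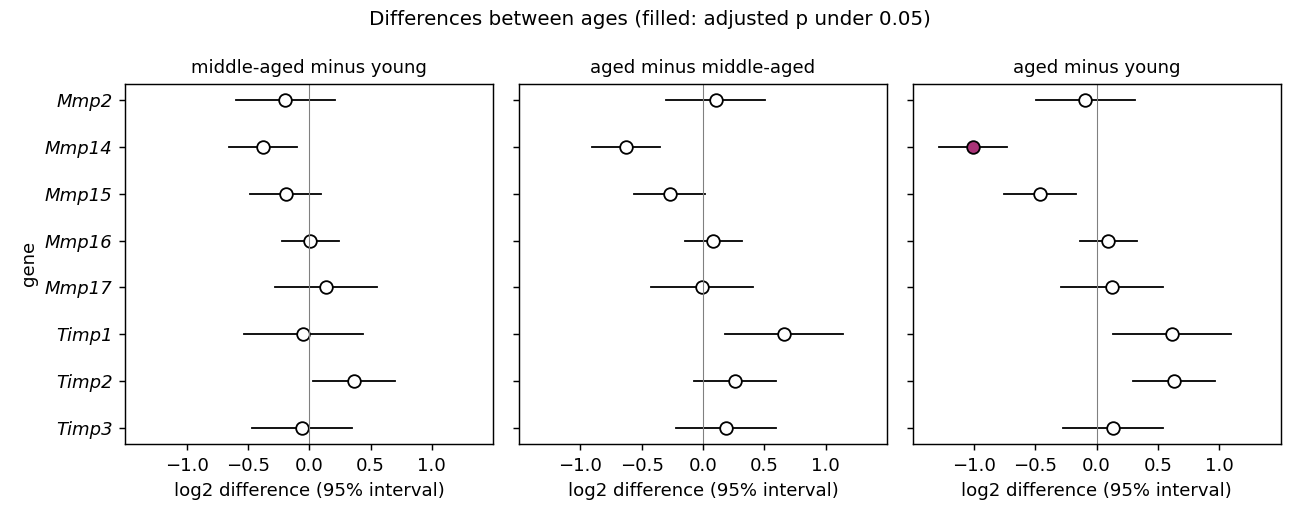
Log2 differences (horizontal axes) with 95% intervals for the 8 tested genes (vertical axis) in the 3 comparisons of age; a filled circle marks an adjusted p under 0.05. Only Mmp14 in aged minus young, at -1.01, is filled.

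The rest of the metalloprotease family was detected in part. Of 18 other family members looked for, 17 had a probe and 6 were tested: Mmp11, Mmp13, Mmp23, Mmp24, Mmp25 and Mmp28, each above background on all 12 arrays. Mmp1, Mmp1b, Mmp3 and Mmp19 were detected on 2, 5, 4 and 2 arrays and were not tested. On 0 arrays was there signal well above background for 7 others: Mmp7, Mmp8, Mmp10, Mmp12, Mmp20, Mmp21 and Mmp27, among them the neutrophil collagenase (Mmp8) and the macrophage elastase (Mmp12). Of the 6 tested, 0 passed in aged against young rats by limma. At an unadjusted p under 0.05 there was 1, Mmp23 at 0.33 ± 0.13, beside 15.2% of all items. Mmp24, a membrane-type enzyme of neurons, was at -0.07 ± 0.08. The median of the 6 was 0.01.

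The related ADAM and ADAMTS proteases shed membrane proteins and cut proteoglycans, and TIMP3 is known to inhibit several of them. Of 27 listed, 23 had a probe and 18 were tested; 0 passed in aged against young rats by limma. In that comparison 4 of 18 had an unadjusted p under 0.05, all lower, beside 15.2% of all items, the background also for the same counts in the lists that follow: Adamts4 at -0.52 ± 0.16 and Adamts5 at -0.38 ± 0.11, which cut aggrecan and its relatives, Adam17 at -0.39 ± 0.11, the sheddase of tumour necrosis factor, and Adamts7 at -0.29 ± 0.09. Their adjusted p-values were 0.134 to 0.161. The median of the 18 was -0.09, beside 0.03 over all items.

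Genes that activate or restrain metalloproteases included plasminogen activators, proprotein convertases and serpins. Of 22, 16 were tested and 1 fell from young to aged, beside 2.04% of all items called and 0.472% called lower. It was Tnfaip6, a secreted hyaluronan-binding protein of inflammation, which fell by 0.62 ± 0.11 (limma adjusted p = 0.0293). That call held in 10 of 24 alternative fits; among those where it was lost, the adjusted p was 0.0606 without young replicate 1 and 0.291 with slide as a block, and with normexp background correction the difference was -0.27 (adjusted p = 0.37). Plat, tissue plasminogen activator, was at -0.39 ± 0.11 (adjusted p = 0.132) and Ctsb, cathepsin B, at 0.29 ± 0.09 (0.182). Furin and Pcsk6, proprotein convertases, were at 0.14 ± 0.09 and 0.14 ± 0.08, and Reck, a membrane-anchored metalloprotease inhibitor, at -0.01 ± 0.10; none of these 3 passed. Among the 16 tested, 1 gene was higher and 3 were lower at an unadjusted limma p under 0.05, beside 15.2% of all items. The plasmin precursor Plg was above background on 0 arrays.

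Of 18 substrates in perineuronal nets, synapses and tight junctions, 17 were tested and 0 passed in aged against young rats by limma; 3 had an unadjusted p under 0.05. Bcan, the brain proteoglycan brevican, was at -0.46 ± 0.14 (adjusted p = 0.178), Vcan, versican, at -0.28 ± 0.12 and Hapln2, a link protein, at 0.23 ± 0.07. Cd44, a hyaluronan receptor, was at 0.07 ± 0.21 in aged minus young, with a difference of -0.66 ± 0.21 in the step to middle age and 0.73 ± 0.21 in the later one, neither of which passed (adjusted p = 0.514 and 0.321).

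Of 16 cytokines, receptors and transcription factors known to drive metalloprotease genes, 13 were tested and 0 passed in aged against young rats by limma. Stat3 was at 0.43 ± 0.09 (adjusted p = 0.0574), Tnfrsf1a, a receptor of tumour necrosis factor, at 0.42 ± 0.09 (0.0653) and Tgfb1 at 0.52 ± 0.15 (0.143), while the immediate-early gene Fos was at -0.64 ± 0.24 (0.267). These were the 4 genes with an unadjusted p under 0.05. Without young replicate 1, Tgfb1, a cytokine that drives matrix and inhibitor genes, was at 0.70 ± 0.10 and passed (limma adjusted p = 0.0199), as 1 of the 13. Tnf and Il6 themselves were above background on 0 arrays.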

How the data were processed

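RNA of 9 RVLM punches was measured on 12 Agilent arrays. Per the file headers, the authors' files, made with Agilent Feature Extraction 9.5.1.1, hold fluorescence intensity on a linear scale; the processed signal used here is background-subtracted and not scaled between arrays. From the deposited flags (0 or 1 per spot), outlier spots were set missing and detection was read. As an alternative, the authors' deposited matrix of the series gave a score per feature, with mean 0 and SD 1 within each array. Over probes, its lowest correlation with the log2 processed signal of an array was 1 after rounding.

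The log2 signal was averaged over spots of a probe, the array's 75th percentile was subtracted, and both arrays of replicate 3 were averaged. Of 41012 probes, 29797 were kept, those detected (well above background) on all arrays of 1 or more groups; for each gene the brightest was used, giving 25446 items. Means of the 3 groups were fitted to the 9 animals with limma 3.58.1 (R 4.3.3; two-sided, prior degrees of freedom 2.64), checked on simulated data. The number of animals, 3 per group, limits the precision, and p-values set a difference between groups against the spread between these animals. No test corrects for cell type.

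Members and lists were chosen with earlier results of these data known. All 10 genes are described; of the lists, genes that passed are named, at most 5 per list by size, together with genes singled out after their values were seen; genes like Mmp14 are the 5 with the smallest root mean square gap. Alternatives changed the background correction, scaling, filter, probe choice, slide, repeat arrays, replicate block, moderation and animals. The replicate numbers did not pair animals across ages (correlations of same-numbered animals -0.41 to 0.37). Some genes of the lists are not reported here.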

Additional observations from a re-analysis of the deposited data

How the results depend on the processing

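Of the 24 member differences, Mmp14 in aged minus young was the only call, and it kept direction and side of the threshold in all 24 alternative fits, -1.12 to -0.92 in log2 with each animal left out. Over the 8 members the count in aged minus young was 1, beside 2.04% of all items. It was 2 with the 12 arrays and the animal as a random block and with trend and robust moderation (Timp2 added, at 0.62 and 0.63). The share of all items that passed in those fits is not given here, so the added call is not read as a result about the members. With each animal left out the count over the 8 was 1 to 2, beside 271 to 510 of 25446 items. Timp1 was added without young replicate 1 and Timp2 without middle-aged replicate 2. In both other comparisons the count was 0 in all fits run.

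Some small member differences changed sign. Mmp17 in aged minus young was -0.003 with normexp background correction. Mmp16 in middle-aged minus young was -0.001 with the percentile over detected probes, -0.045 with slide as a block and -0.002 with array 2 of replicate 3 alone. Mmp17 in aged minus middle-aged was 0.081 with slide as a block, 0.002 with the 12 arrays and 0.061 with array 1 of replicate 3 alone. With each animal left out, Mmp2 ranged from -0.249 to 0.057 in aged minus young and from -0.053 to 0.22 in aged minus middle-aged, and Mmp17 from -0.186 to 0.149 in the latter. In middle-aged minus young the ranges were -0.062 to 0.117 for Mmp16, -0.021 to 0.313 for Mmp17, -0.211 to 0.221 for Timp1 and -0.203 to 0.125 for Timp3. On slide 3 alone, with 1 animal an age and no test, the sign also turned for Mmp16 (-0.215) and Mmp17 (-0.001) in aged minus young, for Mmp2 (0.053), Mmp16 (-0.285), Mmp17 (-0.116), Timp1 (0.181), Timp2 (-0.152) and Timp3 (0.125) in middle-aged minus young, and for Mmp2 (-0.111) and Mmp17 (0.115) in aged minus middle-aged. None of these passed; the cause was not tested.

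Counts over all items moved more. In aged minus young 520 items passed, against 309 with normexp, 288 without the filter, 321 with slide as a block, 343 with only the groups compared, and 271 to 510 with each animal left out. In middle-aged minus young 51 passed, against 23 with normexp, 33 with the series matrix, 5 without the filter, 33 with slide as a block, 32 with array 2 of replicate 3 alone, 3 with only the groups compared, and 2 to 26 with each animal left out. In aged minus middle-aged 3 passed, against 1 with quantile normalization, 1 with median scaling, 1 with every probe as its own item, 1 with slide as a block, 1 with array 2 of replicate 3 alone, 1 with only the groups compared, 0 with the series matrix, 0 without the filter, 26 with the 12 arrays, 13 with trend and robust moderation, and 0 to 4 with each animal left out. By the F test 293 passed, against 153 without the filter, 182 with slide as a block and 104 to 262 with each animal left out. With the replicate block the counts were 158 by the F test, 356 in aged minus young, 8 in middle-aged minus young and 0 in aged minus middle-aged, and 1 member passed, Mmp14. Same-numbered animals correlated from -0.41 to 0.37, and not every animal correlated best with its own number, so the number is not taken as a pairing. The cause of these shifts was not tested.

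Signal limits Mmp9, which stayed below background, and each group holds 3 animals. Slide and age are partly confounded: slide 3 alone held all 3 ages, with 1 animal each.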
